A study of Oryza sativa with 6 samples.

Results

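The early response of rice (Oryza sativa, cultivar TN-67) roots to ferulic acid (FA) was measured on the 3 arrays of the short exposure, out of 6 arrays in the series, chosen by their titles. Each of these 3 two-colour arrays set root RNA of seedlings exposed to 50 ppm FA, pooled from 1 and 3 h and labelled with Cy5, against root RNA of water-treated seedlings, labelled with Cy3. The other 3 arrays made the same comparison after long exposure (24 h). Seedlings were 6 days old and had been grown in the dark, all belonged to the 1 cultivar, and each exposure had 3 biological replicates, with water as the only control. Since FA and water never exchanged dyes, every ratio against 0 is open to a dye bias, and since RNA of 1 and 3 h was pooled, a change at either time alone and a smaller change at both cannot be told apart.

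Ferulic acid belongs to the phenolic acids given off by rice into the surrounding soil, where it slows the growth of other plants and of rice itself. Plant cells meet such compounds with detoxifying enzymes, among them glutathione S-transferases, which attach glutathione to reactive molecules, and with membrane pumps that export the products or store them in the vacuole. Receptor-like kinases, calcium-binding proteins, MAP kinase cascades and hormones carry stress signals to the transcription factors that switch genes on or off. In roots, jasmonate (JA), ethylene, abscisic acid (ABA) and gibberellin (GA) also set the rate of growth.

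The arrays held 42418 probes besides control spots, which represented 29690 rice loci and 510 miRNA-named sequences. Between 72.9% and 75.2% of the probes were well above background in the FA channel and between 68.2% and 75.2% in the water channel. A probe was tested when its processed signal (background-corrected and dye-normalized intensity, in arbitrary units) reached 100 in either channel on at least 1 of the 3 arrays, which left 19133 loci, each read by its tested probe with the highest mean signal. A locus is called upregulated or downregulated here when its mean log2 ratio of FA over water differed from 0 at an adjusted p under 0.1 (limma, Benjamini-Hochberg) and was at least 2-fold, that is at least 1 on the log2 scale. The 3 arrays correlated with each other at r between 0.91 and 0.92 over the tested probes, as a description. Replicates 1 and 2 shared a slide and replicate 3 lay on another. The root markers RCc3, Lsi1, Lsi2 and AMT1;2 were well above background in both channels on all 3 arrays. The 12 probes of the leaf gene rbcS read between 4.58 and 94.5 in the FA channel and between 3.91 and 69 in the water channel, and none entered the test. Of these 12 probes, 6 were well above background on all 3 arrays in the FA channel and 0 in the water channel. The seedlings were grown in the dark, and absence of shoot tissue was not tested. The means of the 4 root markers stayed under 2-fold and lay on both sides of 0: the silicon transporter genes Lsi1 (Os02g0745100) and Lsi2 (Os03g0107300) had mean log2 ratios of -0.89 and -0.70, the ammonium transporter gene AMT1;2 (Os02g0620500) had 0.28, and RCc3 (Os02g0662000) had 0.58 on its brighter probe. Bulk RNA cannot tell fewer cells of a type from less RNA per cell.

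In all, 1353 loci (7.07% of those tested) were upregulated and 490 (2.56%) downregulated, together 9.63%. These percentages are the background for the gene lists that follow. An unadjusted p under 0.05 (limma) was reached by 12448 of the 19133 tested loci, 5215 above and 7233 below 0. Counts of such loci in the lists below are to be read beside this share and are no sign of a response of the list. The increases reached further than the decreases: 66 upregulated loci had a mean log2 ratio of 4 or more, 125 lay between 3 and 4, 278 between 2 and 3 and 884 between 1 and 2, whereas 11 downregulated loci fell by 2 to 3 and the other 479 by 1 to 2. Of the 1843 called loci, 1818 had the same sign on all 3 arrays. At an adjusted p under 0.1 (limma) alone, whatever the size of the change, 5417 loci lay above 0 and 7579 below. The 2-fold limit thus did most of the selecting, and without it more loci lay below 0 than above. Near the 2-fold limit, 146 upregulated and 162 downregulated loci lay within 0.1 above it, and 204 and 251 loci with an adjusted p under 0.1 lay within 0.1 below it. A further limit comes from the filter: 708 tested loci entered through the FA signal only, of which 434 were upregulated, and 756 through the water signal only, of which 146 were downregulated. Where the raw signals were corrected with normexp and normalized with loess, instead of by the scanner software, the share of calls that were upregulated was 89.9% in place of 73.4%, and the median log2 ratio over all loci was 0.003 in place of -0.09, so that the balance of the directions depends on this step.

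Among loci with both channels measured on every array, glutathione S-transferase genes of the tau class led the increases. GSTU22 (Os10g0525600) read 6356, 7253 and 4919.8 in the FA channel of replicates 1, 2 and 3, against 200.1, 153 and 152 in the water channel. No FA value came near any water value, and the log2 ratios were 4.99, 5.57 and 5.02, with a mean of 5.19 ± 0.33 (SD, n = 3, adjusted p = 1.1e-05, limma). GSTU19 (Os10g0527400) read 34266, 35258 and 41839 with FA, against 1311, 768 and 1531 with water, with log2 ratios of 4.71, 5.52 and 4.77 (adjusted p = 1.77e-05, limma). GSTU47 (Os10g0481300) reached 4.83 ± 0.16 and GSTU48 (Os10g0530600) 4.57 ± 0.17, so that 4 of the 10 largest increases belonged to this class. Another of the 10 was Os01g0609300, a gene of an ATP-binding cassette (ABC) transporter of the PDR type, a group of plasma-membrane exporters. It read 6509, 5972 and 6578 with FA, against 363, 275 and 277 with water, a log2 ratio of 4.39 ± 0.21 (SD, n = 3, adjusted p = 8.95e-06, limma), and all 3 arrays were within 0.41 of each other. The other 5 loci, Os02g0755900, Os08g0138200, Os06g0215600, Os12g0155000 and Os08g0120600, have no gene name in the sources used here and had means between 4.28 and 4.98.

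For 105 upregulated loci no array had a water signal well above background, which leaves only a lower bound of the change. It sets the mean FA signal against the higher of the water signal and the lowest signal that was well above background, and ran from 1.68- to 65.6-fold. The highest bounds, picked after their values were seen, were those of Os01g0698800, which read 1488, 1244 and 1403 with FA, against 14.1, 17.9 and 12 with water (at least 65.6-fold higher, adjusted p = 9.48e-06, limma), and of the receptor-like cytoplasmic kinase gene RLCK-OS1 (Os08g0374600), which read 986, 845 and 899 with FA, against 7.81, 8.19 and 11.6 with water (at least 43.4-fold higher, adjusted p = 7.1e-06, limma).

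Among loci with both channels well above background on every array, the 10 largest decreases were smaller than the 10 largest increases. The locus Os01g0827700 fell most of these, with 70.8, 50.4 and 53 in the FA channel, against 397, 329.7 and 329 in the water channel. Its log2 ratios of -2.49, -2.71 and -2.63 gave a mean of -2.61 ± 0.11 (SD, n = 3, adjusted p = 1.62e-05, limma). OsCML17 (Os02g0606600), listed as a calmodulin-like calcium sensor, read 175, 174 and 253 with FA, against 757, 845 and 1015 with water, so that the channels did not overlap (-2.13 ± 0.14, SD, n = 3, adjusted p = 3.08e-05, limma). The transcription factor gene bHLH-57 (Os03g0671800) had log2 ratios of -1.77, -1.85 and -1.84, and the sulfate transporter gene Os03g0196000 had -1.41, -1.96 and -2.06. The remaining 6 loci carry no gene name here and had means between -2.18 for Os02g0582900 and -1.83 for Os06g0626600. Outside this selection, the receptor-like kinase locus Os05g0166300, named after its values were seen, averaged -2.63, with FA well above background on 1 of 3 arrays.

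**Figure D1:**
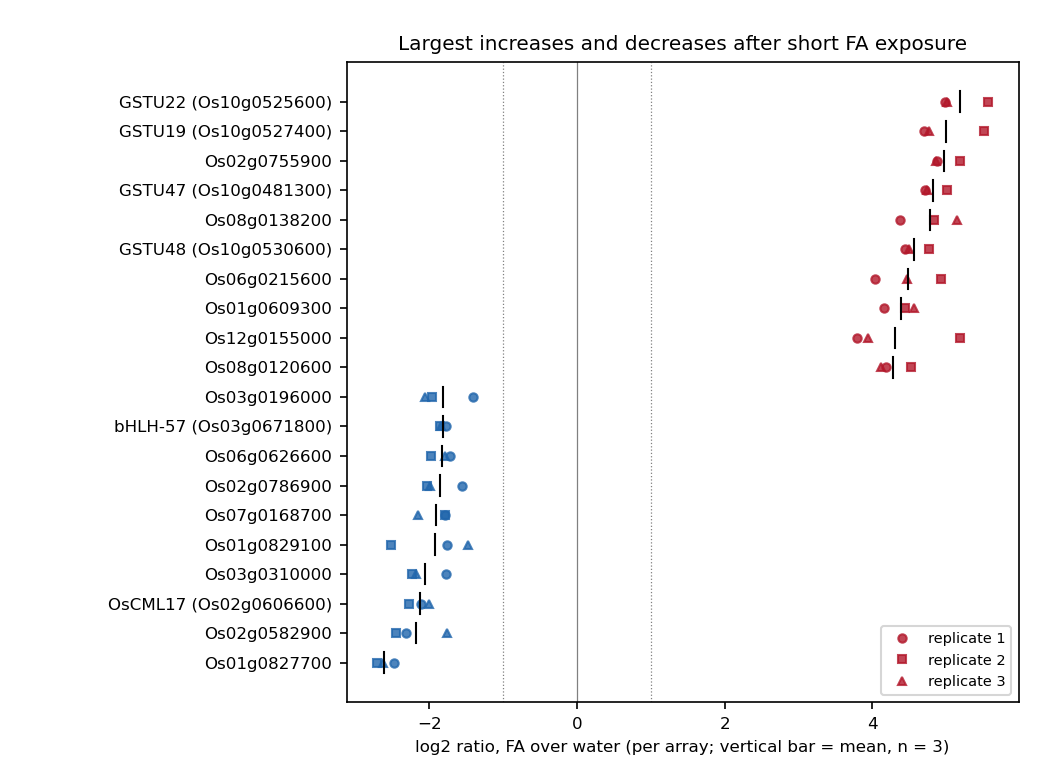
Log2 ratio of FA over water on each of the 3 short-exposure arrays (circles, squares and triangles for replicates 1, 2 and 3) for the 10 loci that rose most and the 10 that fell most among those with both channels well above background on every array, with the mean as a vertical bar and dotted lines at 2-fold. The increases averaged between 4.28 and 5.19, and the decreases between -1.81 and -2.61.

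Jasmonate is made from fatty acids through allene oxide synthase (AOS), and its signal is held back by JAZ repressors, which the receptor COI1 marks for degradation. In the JA signaling list, 6 of 9 tested loci were upregulated, with a median log2 ratio of 1.61 beside -0.09 over all tested loci, and 1 of the 9 had entered the test through the FA signal only. All 6 upregulated loci were JAZ genes. OsJAZ1 (Os03g0180900) read 2697, 2434 and 3032 with FA, against 769, 445 and 549.7 with water, a log2 ratio of 2.24 ± 0.37 (SD, n = 3, adjusted p = 0.000133, limma). OsJAZ6 (Os03g0180800) had log2 ratios of 1.76, 2.02 and 2.46 and OsJAZ5 (Os03g0181100) had 1.60, 1.46 and 1.92. These 3 genes lie side by side on chromosome 3. OsJAZ2 (Os10g0392400) had the highest mean of the list, 3.08 ± 0.30, but its water channel was well above background on only 1 of 3 arrays. OsJAZ7 (Os09g0439200) and OsJAZ4 (Os03g0402800) averaged 1.62 ± 0.25 and 1.37 ± 0.09. The other tested members had means of 0.45 for OsJAZ3 (Os07g0615200), 0.05 for the transcription factor OsMYC (Os10g0575000) and -0.10 for the receptor OsCOI1 (Os01g0853400). On the biosynthesis side 1 of 14 loci was upregulated (7.14%, near the background of 7.07%). This was OsAOS2 (Os03g0767000), with log2 ratios of 1.48, 1.34 and 1.28 (adjusted p = 9.17e-05, limma).

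Ethylene is formed from ACC, which ACC synthase (ACS) makes and ACC oxidase (ACO) converts. After short exposure 3 of 8 tested biosynthesis loci were upregulated. Of the 8 tested, 1 (OsACO5) entered through the FA signal only and was upregulated. OsACO5 (Os05g0149400) read 1213, 1161 and 1274 with FA, against 99.2, 67.4 and 84.9 with water, and its log2 ratio averaged 3.88 ± 0.25 (SD, n = 3, adjusted p = 1.4e-05, limma). OsACS2 (Os04g0578000) had ratios of 2.69, 3.39 and 2.75 and OsACO4 (Os11g0186900) of 2.27, 2.59 and 2.09, so that all 3 genes were above 2-fold on every array. OsACO7 (Os01g0580500) went the other way at -0.94 ± 0.09, short of the 2-fold limit. None of 13 tested ethylene signaling loci was called by limma, and their means ran from -0.91 for the receptor gene OsETR2;1 (Os02g0820900) to 0.73 for OsEIN3;3 (Os07g0685700). The methods' t-test called none either, and 10 of the 13 had an unadjusted p under 0.05 with limma.

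Abscisic acid is made from carotenoids, with 9-cis-epoxycarotenoid dioxygenase (NCED) at the step that limits its rate. OsNCED2 (Os12g0617400) read 588, 536 and 773 with FA, against 15.8, 27.8 and 28 with water, with no water value well above background, so that the change can only be bounded, at least 22.9-fold higher (adjusted p = 2.4e-05, limma). OsNCED1 (Os03g0645900) was measured in both channels and had log2 ratios of 1.26, 1.16 and 1.32 (adjusted p = 0.000113, limma). The third upregulated biosynthesis locus, OsABA4 (Os01g0128300), varied between arrays, at 3.00, 3.27 and 0.77, with the water channel well above background on 1 of 3 arrays only. The aldehyde oxidase gene OsAAO3 (Os07g0281700), of the last step in ABA synthesis, was downregulated, with a mean log2 ratio of -1.22 ± 0.35 (SD, n = 3). With normexp and loess its mean was -0.73, which ended the call. Of 24 tested ABA signaling loci 5 were upregulated (20.8%). Through the FA signal only, 2 of the 24 had entered the test, 1 of them upregulated. Protein phosphatases of the 2C type (PP2C), which restrain ABA signaling, gave 2 of them: OsPP2C5 (Os05g0457200) at 2.42, 1.94 and 2.22 and OsPP2C3 (Os01g0846300) at 1.34, 1.34 and 1.36. The phospholipase gene OsPLDα7 (Os06g0604300) had 1.45 ± 0.24, the bZIP gene OsbZIP23 (Os02g0766700) 1.01 ± 0.18, and OsbZIP10 (Os01g0859300) was at least 4.8-fold higher. Both bZIP calls were lost with normexp and loess, which left 3 upregulated loci in this list.

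Gibberellins promote growth and are inactivated by GA 2-oxidases (GA2ox) and by the cytochrome P450 EUI. In the GA deactivation list 3 of 6 tested loci were upregulated. Of the 6 tested, 1 (GA2ox9) entered through the FA signal only and was upregulated. GA2ox3 (Os01g0757200) read 4929, 5091 and 4224 with FA, against 698, 558 and 495 with water, a log2 ratio of 3.03 ± 0.19 (SD, n = 3, adjusted p = 1.71e-05, limma). GA2ox9 (Os02g0630300) had ratios of 2.81, 3.19 and 3.01. EUI (Os05g0482400) lay on the 2-fold limit at 1.00 ± 0.44, and neither the methods' t-test nor normexp with loess called it. None of 5 GA biosynthesis loci (means -0.85 to 0.70) and none of 7 GA signaling loci was called by limma or by the methods' t-test, while 3 of each list had an unadjusted p under 0.05 (limma). The receptor gene GID1 (Os05g0407500) came nearest, with log2 ratios of 0.85, 1.25 and 0.78.

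Auxin, cytokinin (CK) and brassinosteroid (BR) genes gave few calls. AUX/IAA proteins, which repress auxin responses, made up all 3 upregulated loci among 51 auxin signaling loci tested (5.88%, near the background of 7.07%): OsIAA9 (Os02g0805100) had ratios of 2.24, 2.28 and 2.25, and OsIAA26 (Os09g0527700) and OsIAA19 (Os05g0559400) averaged 1.45 ± 0.58 and 1.20 ± 0.01. In auxin biosynthesis the anthranilate synthase gene OsASB1 (Os04g0463500) averaged 1.24 ± 0.30. The cytokinin oxidase gene OsCKX5 (Os01g0775400), whose product degrades cytokinin, had ratios of 2.47, 2.36 and 1.80, and OSIPT3 (Os05g0312000), of an isopentenyltransferase that makes it, had 1.13, 1.22 and 1.05. In the BR lists the 1 call was OsBAS1L1/CYP734A4 (Os06g0600400), of a P450 that inactivates brassinosteroids, at 1.19 ± 0.25, and the median over 27 tested BR loci was -0.29. Over all hormone lists, 28 of 215 tested loci were upregulated and 1 downregulated.

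**Figure D2:**
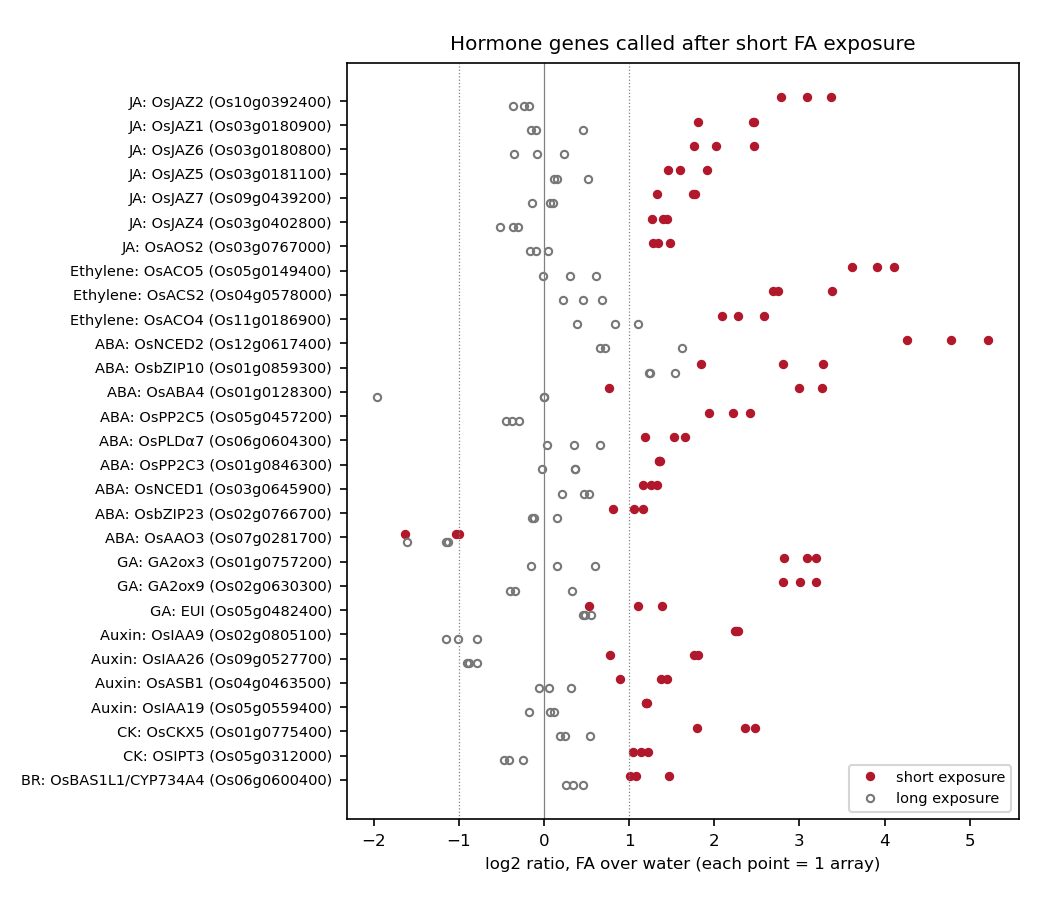
Log2 ratio of FA over water of every hormone gene called after short exposure, 1 point per array, with the short-exposure arrays filled and the long-exposure arrays open, and dotted lines at 2-fold. OsACO5 averaged 3.88 after short and 0.30 after long exposure, whereas OsAAO3 lay at -1.22 and -1.30.

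Mitogen-activated protein kinase (MAPK) cascades pass signals from MAPKKK through MKK to MPK. In the MAPKKK list 9 of 58 tested loci were upregulated (15.5%), none of 6 MKK loci was called by limma or the methods' t-test (means -0.16 to 0.54, 3 with an unadjusted p under 0.05 in limma), and 2 of 14 MPK loci were upregulated (14.3%) and 1 downregulated (7.14%). MAPKKK64 (Os07g0584100) read 1123, 1176 and 1579 with FA, against 288, 259.9 and 410.4 with water, and averaged 2.03 ± 0.13 (SD, n = 3, adjusted p = 3.32e-05, limma). MAPKKK62 (Os01g0699600) had the highest mean, 3.69 ± 0.45, with water well above background on 1 array. It lies beside MAPKKK63 (Os01g0699100, 1.31 ± 0.31) and MAPKKK70 (Os01g0699500, 1.16 ± 0.44) on chromosome 1, and all 3 neighbours were upregulated. MAPKKK61 (Os01g0201200), MAPKKK45 (Os06g0636600), MAPKKK30 (Os02g0120100), MAPKKK51 (Os01g0747400) and MAPKKK53 (Os11g0114600) averaged between 1.04 and 1.70. MPK6 (Os03g0285800 in the study's numbering) had log2 ratios of 1.17, 1.16 and 1.29 and MPK13 (Os02g0135200) had 1.14, 1.30 and 1.22, against -0.98, -1.15 and -0.91 for the downregulated MPK12 (Os05g0576800). With normexp and loess, the calls of MAPKKK45, MAPKKK51, MAPKKK63, MAPKKK70, MPK12 and MPK13 were lost. Of the 58 tested MAPKKK loci, 2 entered through the FA signal only, each of them upregulated.

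Calcium enters the cell within minutes of many stresses and is read by calmodulin-like proteins (CML), calcium-dependent kinases (CPK) and pairs of CBL sensors with CIPK kinases. OsCML31 (Os01g0955100) read 957, 746 and 604 with FA, against 69.8, 63.2 and 63.1 with water, and averaged 3.53 ± 0.26 (SD, n = 3, adjusted p = 1.71e-05, limma). OsCML16 (Os01g0135700) had ratios of 2.08, 2.01 and 1.80 and OsCML27 (Os03g0331700) of 1.21, 1.31 and 1.23, while OsCML17 fell, as given above. In the calmodulin and CML list 3 of 22 tested loci were upregulated (13.6%) and 1 downregulated (4.5%), against 7.07% and 2.56% over all tested loci. The CPK list, also of 22 tested loci, had 1 upregulated (4.5%), OsCPK4 (Os02g0126400) at 1.04 ± 0.20. It had 1 downregulated (4.5%), OsCPK6 (Os02g0832000) at -1.46 ± 0.31. Among 24 CIPK loci 1 was downregulated, and none of 9 CBL loci was called by limma or the methods' t-test, 7 of them having an unadjusted p under 0.05 (limma). In the list of protein phosphatases, 10 of 95 were upregulated, led by OsPP108 (Os09g0325700) at 2.50, 2.50 and 2.22. In the same list 2 were downregulated (2.1%, near the background of 2.56%), led by OsPP53 (Os03g0395100) at -1.21, -1.21 and -0.77. OsPP53 entered through the water signal only. Both decreases lost their call with normexp and loess and with arrays centred on their median.

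Many receptor-like kinases (RLK) sit in the plasma membrane and sense molecules outside the cell, whereas the list also holds cytoplasmic ones (RLCK). Over all families 51 of 402 tested loci were upregulated (12.7%) and 21 downregulated (5.22%). Of the 402 tested, 25 entered through the FA signal only, 21 of them upregulated, and 19 through the water signal only. When both channels had to be well above background on every array, 37 loci were upregulated. With normexp and loess 5 were downregulated. In the cysteine-rich DUF26 family 6 of 14 tested loci were upregulated, with a median of 0.78, and 49 are listed. Of the 14 tested, 2 entered through the FA signal only, each of them upregulated. DUF26-Ih (Os06g0690200) read 635, 597 and 439 with FA, against 74.7, 56.1 and 42 with water (3.30 ± 0.18, SD, n = 3, adjusted p = 1.4e-05, limma). The LRK10L-2 family had 36 listed loci, of which 4 were tested, 2 of these through the FA signal only, and all 4 were upregulated. The locus with the largest measured change, Os05g0550700, had ratios of 1.97, 2.47 and 1.81. Among cytoplasmic RLCK-VII kinases 8 of 38 rose, led by Os03g0407900 at 2.52 ± 0.37, and Os05g0463000 fell at -1.27 ± 0.41. Among leucine-rich repeat (LRR) families, 5 of 23 LRR-VIII loci were upregulated, while 3 of 8 LRR-I and 2 of 22 LRR-III loci were downregulated; the families were not tested against each other. With normexp and loess 1 LRR-I locus was still downregulated, and both LRR-III calls were lost, as they were with arrays centred on their median. Os05g0261700 of LRR-VIII had a mean log2 ratio of 2.00 ± 0.31 (SD, n = 3), against log2 ratios of -1.32, -1.54 and -1.41 for Os09g0356000 of LRR-I and -0.74, -1.29 and -1.12 for Os07g0145400 of LRR-III. The list medians of LRR-III and LRR-I were -0.48 and -0.65, against 0.47 for LRR-VIII. Lectin-type kinases (L-LEC) included both Os06g0328400 at 1.69 ± 0.18 and Os04g0125700 at -1.53 ± 0.35.

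**Figure D3:**
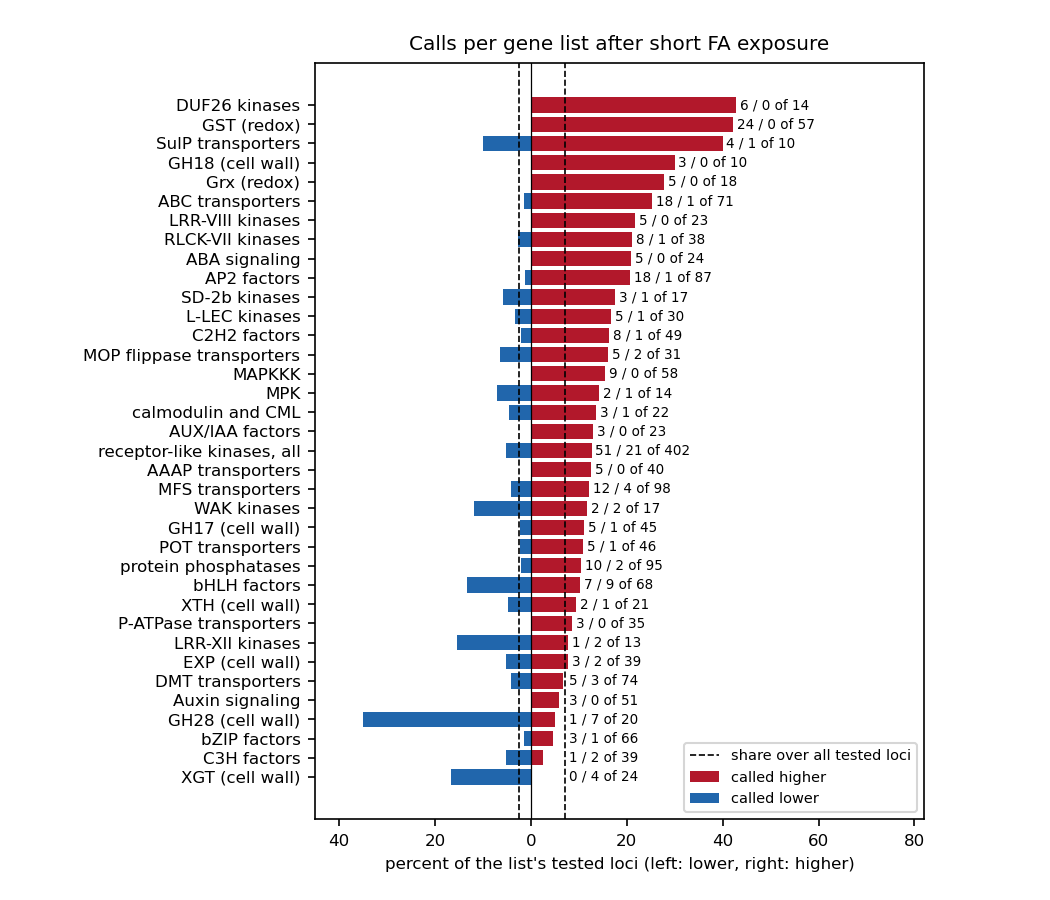
Percent of the tested loci of each gene list called higher (right, red) or lower (left, blue) after short exposure, for lists with at least 10 tested and at least 3 called loci, with the counts beside each bar (higher / lower of tested). Dashed lines mark the shares over all tested loci, 7.07% higher and 2.56% lower.

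Of 403 tested loci in the transcription factor families used here, 43 were upregulated and 17 downregulated. Other families, WRKY, MYB and NAC among them, were not analysed here. The AP2/ERF family, which includes the ethylene-responsive factors, gave 18 of 87 upregulated loci (20.7%) and 1 downregulated. Of the 87 tested, 10 entered through the FA signal only, 9 of them upregulated, and 11 loci were upregulated when both channels had to be well above background on every array. AP2/ERF-58 (Os03g0860100) read 859.9, 672 and 779 with FA, against 50.2, 51.9 and 62.3 with water (3.81 ± 0.25, SD, n = 3, adjusted p = 1.4e-05, limma), while AP2/ERF-138 (Os09g0287000) fell to -2.13, -2.29 and -1.97 on the log2 scale. Zinc-finger factors of the C2H2 type gave 8 upregulated loci of 49, with C2H2-27 (Os03g0437200) the highest of those measured in both channels at a mean log2 ratio of 3.71 ± 0.25 (SD, n = 3), and 1 downregulated, C2H2-4 (Os01g0785900), with -1.44, -1.51 and -0.95. Of the 49 tested, 5 entered through the FA signal only, 4 of them upregulated, and 4 loci were upregulated when both channels had to be well above background on every array. With normexp and loess C2H2-4 averaged -0.70, which ended the call. The bHLH family moved both ways, with 7 upregulated and 9 downregulated of 68 (13.2% downregulated). The number of downregulated bHLH loci was 3 with normexp and loess and 4 with arrays centred on their median. At its ends, among loci measured in both channels, were bHLH-60 (Os03g0741100) at 1.83, 1.72 and 2.61 and bHLH-57 at the values given above. None of 20 auxin response factor (ARF) loci was called by limma or the methods' t-test, and their median was -0.32. In limma 13 of the 20 had an unadjusted p under 0.05, each of them below 0. Over all tested loci 12448 of 19133 reached this p, 7233 of them below 0. In the bZIP family 3 of 66 rose, near the background.

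Membrane transporters gave 71 upregulated and 20 downregulated loci of 788 tested. The downregulated share was near the background of 2.56%, and the upregulated share was little above that of 7.07%. Sulfate transporters (SulP) carry the sulfur from which cysteine and glutathione are built, and 4 of 10 tested were upregulated and 1 downregulated. Os01g0719300 read 661, 579 and 435 with FA, against 266, 56.3 and 84.2 with water, so that every FA value lay above every water value, but its log2 ratios of 1.31, 3.36 and 2.37 were spread and the methods' t-test did not call it. The downregulated sulfate transporter gene, Os03g0196000, read 302, 129.6 and 69.3 with FA, against 800.4, 505 and 289 with water (-1.81 ± 0.35, SD, n = 3, adjusted p = 0.000243, limma). Ammonium transporters (Amt) had 2 of 7 tested loci downregulated: Os01g0831300 with ratios of -1.33, -2.29 and -1.30 and Os02g0550800, named after its values were seen, with -1.63, -1.22 and -1.27. Neither was called with normexp and loess, where Os01g0831300 averaged -0.93. Among MOP flippases, which include the MATE exporters, 5 of 31 rose, led by Os10g0345100 at 3.07, 3.75 and 3.30, and 2 fell (6.45%), Os09g0524300 among them at -1.83, -1.76 and -0.81. Neither decrease was called with normexp and loess. Of the 31 tested MOP loci, 3 entered through the FA signal only, 2 of them upregulated. The mitochondrial carrier gene Os09g0454600, listed as a phosphate carrier, had ratios of 3.80, 3.94 and 3.93, and the P-type ATPase gene Os03g0326200 had 2.66, 2.29 and 2.69. In the ABC family 18 of 71 tested loci were upregulated, 11 when both channels had to be well above background on every array. Of the 71 tested, 5 entered through the FA signal only, each of them upregulated. By contrast, none of 27 aquaporin (MIP) loci was called by limma or the methods' t-test. An unadjusted p under 0.05 (limma) was reached by 19 of the 27, near the share over all tested loci (12448 of 19133).

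The glutathione S-transferase genes of chromosome 10 could be followed along the chromosome. Between Os10g0525200 and Os10g0531900, 27 loci were tested, of which 19 are on the GST list, and 11 of these were upregulated. GST means ran from -0.55 for GSTU18 (Os10g0529300) to 5.19 for GSTU22. On one side of the stretch, GSTU21 (Os10g0525500), GSTU22, GSTU31 (Os10g0525800), GSTU19 and GSTU12 (Os10g0527800) had means between 2.86 and 5.19, followed by GSTU24 (Os10g0528100) at 1.59 and GSTU29 (Os10g0528400) at 1.84. On the other side were GSTU48, GSTU49 (Os10g0530700) and GSTU50 (Os10g0530900) at 4.57, 1.60 and 2.44. Between them, GSTU18, GSTU9 (Os10g0529400), GSTU2 (Os10g0529800), GSTU25 (Os10g0529900), GSTU27 (Os10g0530000), GSTU26 (Os10g0530200), GSTU28 (Os10g0530300) and GSTU23 (Os10g0530400) stayed under 2-fold, at -0.55 to 0.81, and GSTU30 (Os10g0529500) had 1.13, 1.06 and 1.11 on the 3 arrays. Adjacent genes thus differed widely: GSTU23 had log2 ratios of 1.05, 0.57 and 0.81, against 4.44, 4.77 and 4.50 for its tested neighbour GSTU48. Of the 8 tested loci of the stretch that are not on the GST list, 4 were upregulated and 1, bZIP78 (Os10g0531900), was downregulated at -1.03 ± 0.22. Os10g0525200, with no water value well above background, was at least 16.7-fold higher. Near-identical copies can hybridize to each other's probes, and their share in these values was not tested.

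**Figure D4:**
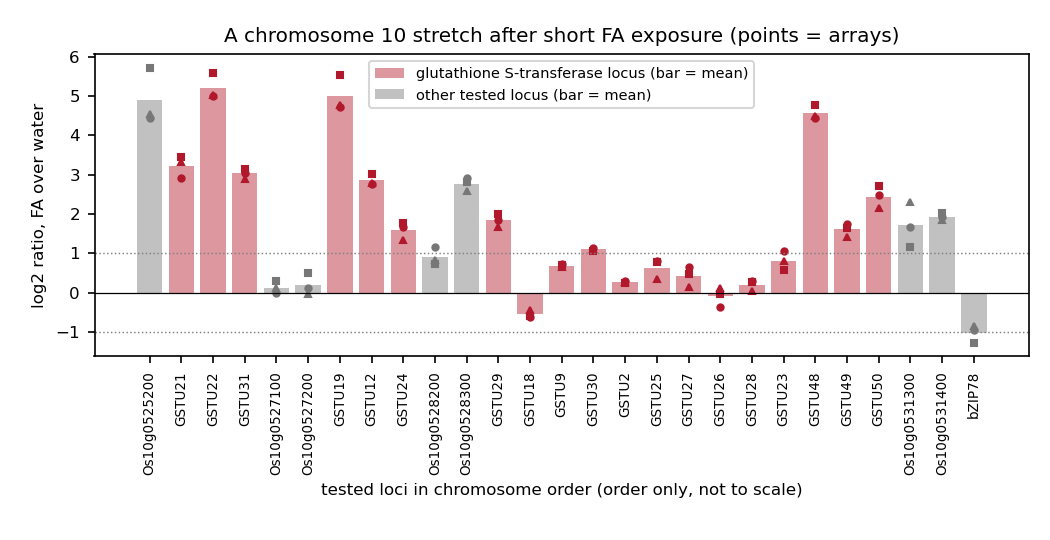
Log2 ratio of FA over water after short exposure for 27 tested loci of chromosome 10 in gene order (not to scale), with bars for the mean of 3 arrays and points for the arrays, GST loci in red and others in grey, and dotted lines at 2-fold. GSTU22 stands highest at 5.19, and the 8 GST loci under 2-fold between -0.55 and 0.81.

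Over all chromosomes, 15.5% of 1352 upregulated loci with a tested neighbour were followed by a tested locus that was also upregulated, against 7.07% of all tested loci, and 3.88% of 490 downregulated loci were followed by a downregulated one, against 2.56%. There were 41 runs of at least 3 adjacent tested loci with the same call, 40 of them upregulated. The longest had 5 loci, and there were 3 of these, Os01g0159300 to Os01g0160800, Os07g0663700 to Os07g0664200 and Os10g0530600 to Os10g0531400. The share of upregulated loci ran from 6.21% to 8.37% among chromosomes. Cross-hybridization between tandem copies was not tested here either. Other probes of the same locus gave a further reading on the same arrays. Of 317 upregulated loci with another tested probe, 309 had a ratio above 0 on every such probe and 290 had at least 1 with the same call. For 90 downregulated loci, these numbers were 88 and 67, and none had a probe called in the opposite direction.

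Among other redox genes, alternative oxidases divert electrons in the mitochondrion, and the largest change was that of AOX1b (Os04g0600300), with 1032, 904 and 527 in the FA channel, against 39, 11.9 and 22.3 in the water channel. Water was well above background on 2 of 3 arrays for this probe, which averaged 5.18 ± 0.93 (SD, n = 3, adjusted p = 0.000115, limma), and on 1 of 3 for the other probe, which averaged 4.98. The glutaredoxin gene Grx_C2.1 (Os02g0618100) had ratios of 3.10, 3.51 and 3.11, and the monodehydroascorbate reductase gene MDAR-11 (Os08g0557600), whose product regenerates ascorbate, had 2.50, 2.54 and 2.35. The peroxide-removing ascorbate peroxidases (APx) and catalases (Cat) gave no called locus by limma or the methods' t-test among 6 and 2 tested. Their means ran from -0.51 to 0.25 for APx, 5 of which had an unadjusted p under 0.05 (limma), and from -0.48 to -0.12 for Cat, 1 of which also had. Over the redox lists used here 38 of 104 tested loci were upregulated, while class III peroxidases, superoxide dismutases and other redox families were not analysed here.

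Cell-wall genes had 21 upregulated and 24 downregulated loci of 372 tested, with a median of -0.21 beside -0.09 over all loci. Polygalacturonases (GH28), which cut pectin, had 7 of 20 tested loci downregulated (35%, background 2.56%) and 1 upregulated, and with normexp and loess 2 were downregulated. Os01g0637500 read 42.6, 25 and 46.1 with FA, against 171, 131 and 120.4 with water, with FA well above background on 2 of 3 arrays (-1.93 ± 0.51, SD, n = 3, adjusted p = 0.000539, limma). The single upregulated GH28 locus, Os05g0542800, had ratios of 1.98, 2.23 and 1.89. In the XGT list, of glycosyltransferases, 4 of 24 fell, with a median of -0.49, and with normexp and loess 1 did. Os03g0144300 of this list had ratios of -1.21, -1.54 and -1.42. In the cellulose synthase-like list (CSL) 2 of 30 fell, with Os07g0551700 at -1.37, -1.78 and -1.96 and a median of -0.49. Expansins, which loosen the wall, had 3 higher (7.69%, near the background of 7.07%) and 2 lower (5.13%, background 2.56%) of 39. Examples are the alpha-expansin gene Os05g0276500 at 1.51 ± 0.19 and the beta-expansin gene Os03g0102700 at -1.28 ± 0.27. In the GH18 list, of chitinases and their relatives, 3 of 10 were upregulated, led by Os06g0356800 at 2.98, 3.46 and 3.23.

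The difference between the exposures was tested directly over all 6 arrays. Of the 1353 upregulated loci, 1080 were also tested after long exposure, where 173 were upregulated and 4 downregulated, and their median log2 ratio was 1.63 after short and 0.40 after long exposure. These 173 made up 16% of the short-exposure and 58.6% of the long-exposure upregulated loci tested in both. Of the 490 downregulated loci, 457 were tested after long exposure, where 29 were downregulated (6.35% of the short-exposure and 28.2% of the long-exposure loci tested in both) and none upregulated, with medians of -1.18 and -0.21. In the difference (short minus long, limma), 5.81% of 19085 loci were higher and 2.59% lower after short exposure. Among the upregulated loci 922 were called higher and 4 lower in this difference, and among the downregulated 227 were called lower and 1 higher. Both counts use the same short-exposure arrays that chose the loci. The 3 long-exposure arrays lay on a slide of their own, so that exposure and slide cannot be told apart in this comparison.

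Named genes followed this in different degrees. OsACO5 averaged 3.88 ± 0.25 after short and 0.30 ± 0.31 (SD, n = 3) after long exposure, a difference of 3.58 (adjusted p = 4.73e-05, limma). GSTU22 was upregulated in both exposures, at 5.19 after short and 1.57 after long exposure, with a difference of 3.63 (adjusted p = 9.82e-05, limma). OsAAO3 was downregulated in both, at -1.22 ± 0.35 after short and -1.30 ± 0.27 (SD, n = 3) after long exposure, and no difference was called (0.08, SE 0.21, adjusted p = 0.8, limma). The xyloglucan fucosyltransferase gene Os09g0458100 likewise stood at 1.24 ± 0.32 and 1.36 ± 0.14 (SD, n = 3). The GSTU49 ratio was 1.60 after short and 1.57 after long exposure, unlike its neighbour GSTU48 with 4.57 and 1.08. OsIAA9 changed sign: its log2 ratios were 2.24, 2.28 and 2.25 after short and -0.78, -1.15 and -1.01 after long exposure, and the difference was 3.24 (adjusted p = 1.81e-05, limma). OsCML16 did so as well, with 2.08, 2.01 and 1.80 after short and -0.98, -0.39 and -0.70 after long exposure (adjusted p = 7.25e-05, limma).

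**Figure D5:**
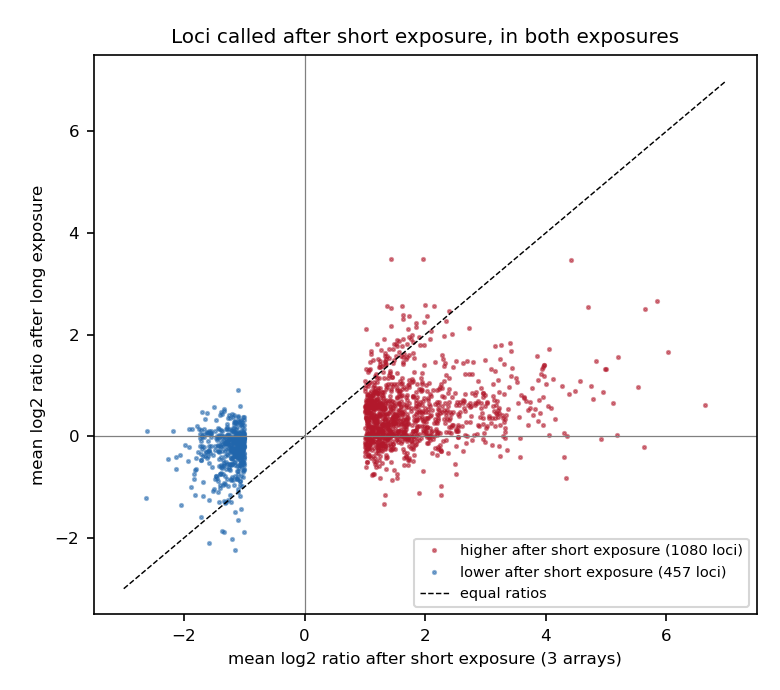
Mean log2 ratio after short exposure (x axis, 3 arrays) against that after long exposure (y axis) for the 1537 loci called after short exposure and tested in both, upregulated in red (1080 loci) and downregulated in blue (457 loci), with a dashed line where the ratios are equal. The medians were 1.63 and 0.40 for the red points and -1.18 and -0.21 for the blue points.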

How the data were processed

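Root RNA of FA- and water-treated seedlings was hybridized together on two-colour Agilent arrays, FA in Cy5 and water in Cy3. The authors read the arrays with Feature Extraction, version 10.7.1.1 per the file headers. The deposited processed intensities had been corrected for background, spatial trend and dye by the authors' software, which puts a surrogate in place of signals too low to measure. From them the software made the deposited log10 ratio of Cy5 over Cy3 and set it to 0 for probes with no significant channel (5417 to 6714 probes on the short-exposure arrays). Mean and background intensities are deposited uncorrected. A further deposited matrix holds the authors' log2 ratios of the processed signals and served as an alternative.

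The log10 ratio was turned into log2. Control spots, 59 probes named as controls and outlier spots (78, 79 and 642 on the short-exposure arrays) were left out, and repeated spots were averaged. Probes with a value on 2 or more arrays and a processed signal reaching 100 somewhere on the arrays of the exposure entered the test, 27773 after short exposure. limma 3.58.1 (lmFit, eBayes; R 4.3.3) tested the mean of the 3 arrays against 0 and, over 6 arrays, short minus long, and p-values were adjusted by Benjamini-Hochberg over all tested probes. A locus took its tested probe with the highest mean signal on the short-exposure arrays. There is no counting depth on an array, so that the number of arrays limits the precision. The study's methods call the replicates biological, and the labels only number them.

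Gene lists and gene names are those of the study's supplement, which was held in part for transcription factors and redox genes: only families whose list was complete entered, and WRKY, MYB and NAC factors and class III peroxidases, among others, were not analysed here. The receptor-like kinase list held every locus with an identifier. The cell-wall and redox lists were added after the files had been seen. The genes named are the 10 largest increases and decreases with both channels well above background, the largest measured change in each direction of each list with 2 or more called loci, and every called hormone, calmodulin and MAP kinase gene. Loci named below 2-fold, those with bounds and the stretch of chromosome 10 were chosen after their values were seen. The members and lists were chosen with earlier results of these data known. Lists of words in gene descriptions and promoter motifs were not used here.

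The alternatives were normexp (offset 50) with loess, centred arrays, the value matrix, no signal filter, 100 on all arrays, both channels well above background on all arrays, 1 replicate left out at a time, the methods' t-test, the replicate number as a block, slide as a random block for short minus long, the median over the probes of a locus and, added after the data were seen, slide as a random block in the short-exposure test. In simulated data with 200 changed probes among 27773, limma called 192 (96%) for short exposure with 0 false calls. The methods' t-test called 63 (31.5%). For short minus long, limma called 162 (81%) with 12 false calls among 28644. Real short-exposure data were far from this setting: 18628 of 27773 tested probes passed the 0.1 limit in limma, whatever their size of change. The Benjamini-Hochberg cut-off therefore differed, and the methods' t-test kept 1671 of the 1843 called loci. The simulated shares thus do not estimate how many real changes were missed or falsely called. Further tools were the R package data.table (version 1.17.8), Python 3.11.15, pandas 2.3.3, numpy 2.4.6 and matplotlib 3.10.9.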

Additional observations from a re-analysis of the deposited data

Results flagged for a closer look

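Of the 136 named genes, 79 had a ratio called higher and 28 a ratio called lower after short than after long exposure (limma, short minus long on all 6 arrays), against 5.81% and 2.59% of all loci tested for this difference. These genes were chosen by their calls or changes after short exposure, which favours such differences, so that the counts are a description. The 3 long-exposure arrays had a slide of their own, so that exposure and slide cannot be told apart.

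In 16 of those that were also tested after long exposure, all 3 arrays of short exposure lay on one side of 0 and all 3 of long exposure on the other. Short minus long was 3.24 for OsIAA9, 2.57 for OsPP2C5, 2.65 for OsCML16, 2.31 for OsIAA26, 1.77 for OsJAZ4, 1.39 for OsCML27, 1.70 for MAPKKK30, 1.43 for MAPKKK51, 1.54 for OsCPK4 and 1.52 for OSIPT3. It was 1.26 for the GH10 glycoside hydrolase gene Os03g0243700. For Os09g0555100, on the AEC transporter list but described as a sulfotransferase family protein, it was 2.08. The sign was the other way in 4 genes, with -1.56 for Os03g0201500 (GH10), -1.60 for Os06g0247000 (GT8), -1.45 for C2H2-4 (Os01g0785900) and -2.01 for Os02g0786900. OsPP2C5 (Os05g0457200) had log2 ratios of 2.42, 1.94 and 2.22 after short and -0.30, -0.45 and -0.37 after long exposure.

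The arrays also carry 510 miRNA-named probes, which enter no gene list, and 143 were tested after short exposure, 5 of them upregulated and 2 downregulated (limma). Over all 27773 tested probes 1899 were upregulated and 631 downregulated, so that both counts lie below the share over all probes. The mean log2 ratio of FA over water was 1.03 for a probe labelled osa-miR414 on chromosome 11, 1.08 for osa-miR169a, 1.68 for osa-miR416, 1.36 for osa-miR168a and 1.72 for osa-miR442. Both called probes labelled osa-miR171h, named for the 5′ and the 3′ sequence, fell, with means of -1.22 and -1.41. The 5′ probe read 89.3, 75.1 and 114 with FA, against 224, 148 and 292 with water, so that the channels did not overlap (adjusted p = 0.000312, limma). The probe of osa-miR416 was upregulated after long exposure as well, at 1.92, and that of osa-miR442 at 2.21.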

How the results depend on the processing

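Under every alternative run, 0 of the named genes changed sign, and 83 of the values of named genes over all alternatives lost their call, 36 of these with normexp and loess (23 of 44 downregulated and 13 of 92 upregulated named genes). The counts of upregulated probes and loci stayed within 1.5 times under all alternatives. The downregulated ones moved: normexp with loess gave 163 probes and 125 loci (631 and 490 as reported) and, for short minus long, 291 probes (713 as reported), and without a signal filter there were 1015 probes and 767 loci. Of the 1843 called loci, 1213 were also called with normexp and loess, 1705 with arrays centred on their median, 1671 by the methods' t-test and 1436 when both channels had to be well above background. Leaving out 1 array in turn gave 1735 to 1965 probes and 1240 to 1397 loci upregulated, 571 to 718 probes and 441 to 550 loci downregulated, 330 to 367 called loci in the gene lists (359 as reported), 122 to 131 of the 136 named genes still called, and, for short minus long, 1488 to 1680 probes higher and 654 to 788 lower. With the replicate number as a block, short minus long called 1653 probes higher and 715 lower (1642 and 713 without it). Deviations of same-numbered arrays correlated at -0.13, -0.03 and 0.15, and those of the other pairs between -0.29 and 0.33. With 3 arrays per exposure these values cannot show whether the numbers pair the samples. Slide as a random block gave 1651 and 718, with a within-slide correlation of -0.10. The long-exposure arrays had a slide of their own, so that this block cannot separate slide from exposure. Causes were not tested. Upregulated receptor-like kinases were 51 as reported, 81 without a signal filter and 37 when both channels had to be well above background, and downregulated ones were 21 as reported and 5 with normexp and loess.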

Other observations

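The 59 probes named as controls, which were left out of all tests, had a median log2 ratio of 0 on each of the 3 short-exposure arrays. Only 6 of them were well above background in the FA channel and 6 or 7 in the water channel. The software sets the ratio to 0 for probes with no significant channel, so that this median is no measure of dye bias. The ratios of the 59 control probes ran as low as -1.62, on replicate 3, and as high as 1.95, on replicate 2.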
